A study of Mus musculus with 24 samples.

Results

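The 10 genes described here are immediate early genes, most of which encode the AP-1 transcription factors: Fos, Fosb, Fosl2, Jun, Junb, Jund, Egr1, Egr2, Ier2 and Ier3. They were found by gene name among 39429 probes of an Agilent array that are not controls, and 11 probes carried their names, of 30195 names on the array. All 10 matched a RefSeq gene. RNA came from DA1-3B Bcr-ABL+, a mouse leukaemia line of C3H eOuJ origin with an active Bcr-Abl kinase, and every sample had been transfected with plasmid DNA. Of the 6 groups, each of 4 arrays, VOID received a plasmid with no insert, WT received p65/RelA in full (the main activating subunit of NF-kB), and D361E received p65/RelA with a mutation that prevents its cleavage. The other groups received p65/RelA-p1-361, the part before the cleavage site, p65/RelA-p363-549, the part after it (whose first residue is given 1 lower in the protocol than in sample names), or p1-361+p363-549, called both fragments below. The labels give no promoter for the plasmids, no share of cells transfected and no time after transfection. Nothing in them tells whether the arrays of a group stem from separate cultures, so p-values here measure the spread between these samples, which may be technical.

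Immediate early genes are transcribed within minutes of a stimulus, without new protein synthesis, when the Ras and MAP kinase pathway and other signals activate transcription factors already bound at their promoters, among them serum response factor and CREB. Fos and Jun proteins pair through leucine zippers to form AP-1, which binds the sequence known as the TPA response element, and Jun, Junb and Jund differ in how strongly they activate it. Bcr-Abl signals through Ras and is known to drive AP-1 activity in leukaemia cells, and NF-kB binds kB sites at genes of this class, of which Ier3 is a well-known NF-kB target.

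The value used throughout is the log2 of the background-subtracted signal minus the 75th percentile of its array, so that 0 is the brightness below which 75% of the spots lie. A difference of 1 on this scale is a doubling. Probes bind with different strength, so levels are compared between groups for 1 gene and not between genes. A gene was called where limma's moderated test gave a Benjamini-Hochberg adjusted p under 0.05 over the 15004 genes tested. Arrays are given in the order of replicates 1 to 4, and errors of differences are standard errors from that fit (n = 4 arrays per group).

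The stretch just before the transcription start is shown for 4 members, since the study varied a DNA-binding factor and some of these windows match the kB site, the sequence p65 binds. Sequences are RefSeq promoters of build GRCm38.p6, 250 bases up to the start and on the gene's own strand, with matches to the searched motifs in capitals. Ier3 (chr17:35821463-35821712, plus strand) had the only called change among the members, and like Fos (chr12:85473640-85473889, plus) and Fosl2 (chr5:32136222-32136471, plus) it holds a kB match in at least 1 form of the consensus searched, and Egr2 (chr10:67537620-67537869, plus, 1 of 5 listed starts) holds a CArG box, the site of serum response factor.
Ier3: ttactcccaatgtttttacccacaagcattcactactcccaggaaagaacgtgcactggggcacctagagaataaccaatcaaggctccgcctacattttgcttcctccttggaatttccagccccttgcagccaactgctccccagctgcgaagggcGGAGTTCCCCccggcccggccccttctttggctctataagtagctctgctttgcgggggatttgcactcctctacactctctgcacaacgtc
Fos: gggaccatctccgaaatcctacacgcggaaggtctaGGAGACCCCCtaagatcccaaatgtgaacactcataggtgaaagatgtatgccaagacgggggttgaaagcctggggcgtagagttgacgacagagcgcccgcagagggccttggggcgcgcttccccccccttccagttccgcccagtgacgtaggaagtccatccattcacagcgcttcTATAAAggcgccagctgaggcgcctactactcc
Fosl2: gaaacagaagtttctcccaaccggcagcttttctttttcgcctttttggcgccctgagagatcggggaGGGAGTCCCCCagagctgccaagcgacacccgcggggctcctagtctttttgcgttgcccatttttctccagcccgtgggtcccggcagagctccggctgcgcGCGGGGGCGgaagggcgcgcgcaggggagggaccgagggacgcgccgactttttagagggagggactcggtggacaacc
Egr2: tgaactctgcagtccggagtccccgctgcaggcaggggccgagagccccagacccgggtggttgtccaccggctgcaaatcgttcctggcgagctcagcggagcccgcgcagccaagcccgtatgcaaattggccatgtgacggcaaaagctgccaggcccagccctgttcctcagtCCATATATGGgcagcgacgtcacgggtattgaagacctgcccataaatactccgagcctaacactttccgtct

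The motifs were searched on both strands: the TATA box (TATAAA), AP-1 (TGACTCA or TGAGTCA), CRE (TGACGTCA), the EGR site (GCGGGGGCG or GCGTGGGCG), the CArG box by its usual consensus, and the kB site. The kB site was searched as GGG, a purine, any base, 3 pyrimidines and CC. As it is also written with any base, or with A or T, at the sixth place, these forms were added after the data were seen. Matches of different motifs did not overlap in the members' promoters, whereas matches of the kB forms did. The kB site matched GGAGACCCCC in Fos, 214 to 205 bases before the start and read on the other strand. In Fosl2 it matched GGGAGTCCCC, 182 to 173 bases before the start. Fosb had GGGGACCCCC at 188 to 179, and another Egr2 start had GGGAGCTCCC at 117 to 108. Among the 32851 promoters in the table, 5.0% held such a match, and 4 of the 8 members with an entry did. With any base at the sixth place it was 7.25% of promoters and 5 members, the fifth being Ier3, which has GGAGTTCCCC at 92 to 83 bases before the start, read on the other strand. With A or T there it was 3.9% and 4 members, with Ier3 among them and without Egr2. Whether Ier3 or Egr2 holds a match thus depends on the form searched. The kB shares count promoters, whereas a member counts if any of its starts matches, and Egr2 has 5 starts. Fos has TATAAA at 33 to 28 bases before the start, a motif in 12.4% of promoters. The EGR site GCGGGGGCG lay in Fosl2 at 79 to 71 bases and in Fosb at 50 to 42, against 3.06% of all promoters. The CArG box of Egr2 (CCATATATGG, 73 to 64 bases before the start) is of a kind found in 1.47%. AP-1 (4.46% of promoters) and CRE (1.55%) matched no member, and besides the kB forms no motif searched was in the Ier3 window. The windows of Jun, Junb and Jund, which are not shown, matched no motif searched in any form. These matches are letters in a window of 250 bases and describe no binding.

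Of the 10 members, 9 had a probe well above background on all 24 arrays and were tested. Egr1, a zinc finger factor induced by growth signals, was read by a single probe that was not well above background on any of the 24 arrays, with values from -7.91 to -5.21, so its level has only an upper bound and no group could be compared. Fosl2 has a second probe, in an earlier stretch of its transcript, that was above background on 5 of 24 arrays and was not used. Fos has 1 probe printed in 10 spots, whose SD within an array had a median of 0.0875 log2. On build mm9 the tested probes lie at chr17:35959528-35959587 for Ier3, chr4:94716928-94716987 for Jun, chr8:73224436-73224495 for Jund, chr8:87501881-87501940 for Junb and chr12:86817900-86817959 for Fos. The others are at chr5:32460076-32460135 for Fosl2, chr7:19888168-19888227 for Fosb, chr10:67004798-67004857 for Egr2 and chr8:87186214-87186273 for Ier2. The files do not say which exon or untranslated part each probe lies in.

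Each array had 49.4% to 55.5% of its spots well above background, and its 75th percentile lay between 635.8 and 1214. All 8 haematopoietic markers examined were above background on every array, including Ptprc and Runx1, and the 3 B cell and 3 epithelial markers were above background on none. Of the erythroid list Gata1, Klf1 and the globin genes were above background on all 24 arrays and Alas2 on 0. Of the T cell list Cd3e and Cd4 were on 24, Cd3g on 12 and Cd8a on 0. For monocyte markers it was 24 for Csf1r, 17 for Lyz2, 12 for Ly6c1 and 1 for Cd14. The endothelial markers Kdr and Pecam1 were above background on 24 and Cdh5 on 0. In an earlier look at these data, and again here, 3 arrays stood apart from their labels over the 200 genes that best separated the groups in the other sets of arrays. The p363-549 array numbered 4 correlated with the mean of both fragments (r = 0.97) and not with that of p363-549 (r = -0.55). The p1-361 array numbered 4 was closer to p363-549 (0.78) than to p1-361 (0.14), and the array of both fragments numbered 4 was closer to p1-361 (0.71) than to its label (-0.09). For the remaining 21 arrays, r with the labelled group was 0.52 to 0.95. These values of r are across genes, which are not independent. Some differences of Ier3, Jun, Junb and Jund and some counts of calls are also given without the 3 arrays. These arrays were picked from the same data for lying far from their labelled groups, so results without them are no independent support. All other results on the fragment groups include the 3 arrays. Rela, the transfected gene, read 0.36 to 0.49 above VOID in the 5 constructs, called in p1-361, p363-549 and both fragments (adjusted p = 0.0404, 0.0159 and 0.00622). Its only probe starts at base 2648 of the transcript, and whether the plasmids carry that stretch is not given, so it is no check of the transfection.

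Ier3, which encodes a stress-induced regulator of apoptosis and ERK signalling, was the only member called in any comparison, and it was lower with both fragments together. Its level was 1.36, 0.96, 1.39 and 1.97 on the both-fragment arrays, against 1.99, 2.35, 1.99 and 2.52 in WT. The both-fragment and WT arrays did not overlap, and the highest both-fragment array, numbered 4, lay just below the lowest WT array. It is also the array of that group that resembled another group. In D361E the level of Ier3 was 2.34, 2.35, 1.97 and 2.22, and in VOID 1.76, 2.11, 1.76 and 2.34. Each fragment alone gave values near those of VOID: 2.00, 2.26, 1.77 and 1.95 in p1-361, and 2.06, 2.03, 1.93 and 1.77 in p363-549. The both-fragment array numbered 4 overlapped these 2 groups, VOID and also D361E, whose lowest array was at the same 1.97.

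With both fragments Ier3 fell by 0.79 ± 0.19 against WT (1.73-fold, 95% interval -1.18 to -0.40, adjusted p = 0.0454) and by 0.80 ± 0.19 against D361E (1.74-fold, adjusted p = 0.0193). These 2 comparisons share the both-fragment arrays. It was the 1 member called against WT, where 0.913% of all genes tested were called lower, and the 1 called against D361E, where 2.55% were called lower (1.02% and 3.9% in either direction). Non-overlap between both fragments and WT was found for 7.49% of all genes. Against VOID the difference in Ier3 was -0.57 ± 0.19 and missed the test (adjusted p = 0.0913). Against p1-361 and p363-549 it was -0.57 and -0.53, which did not pass either (adjusted p = 0.148 and 0.163). WT and D361E themselves were 0.22 ± 0.19 and 0.23 ± 0.19 above VOID in Ier3, not called (adjusted p = 0.999 and 1). The excess of both fragments over the sum of the single-fragment differences was -0.53 ± 0.27 (adjusted p = 0.367), so departure from additivity was not called.

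Without the 3 arrays that stood apart, Ier3 was lower with both fragments by 0.97 on the log2 scale against WT (adjusted p = 0.00215), by 0.98 against D361E (adjusted p = 0.00135) and by 0.76 against VOID (adjusted p = 0.0104), all called, where 5.55%, 10% and 9.58% of all genes were. The both-fragment array left out was the highest of its group in Ier3, so these larger differences follow in part from the choice of arrays. The call against WT was close to the threshold in the full data: it was lost in 26 of 37 other settings, at values from -0.86 to -0.64 and adjusted p-values from 0.0503 to 0.299. Leaving out any single array ended it except VOID replicates 1 and 4, p363-549 replicate 4 and both-fragment replicate 4. The call against D361E was kept in 31 of 37 settings and was lost without D361E replicate 1 (adjusted p = 0.0683) or 2 (0.0721), without both-fragment replicate 1 (0.0706) or 2 (0.106), after normexp background correction (0.0591) and in a fit of those arrays only (0.140).

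**Figure D1:**
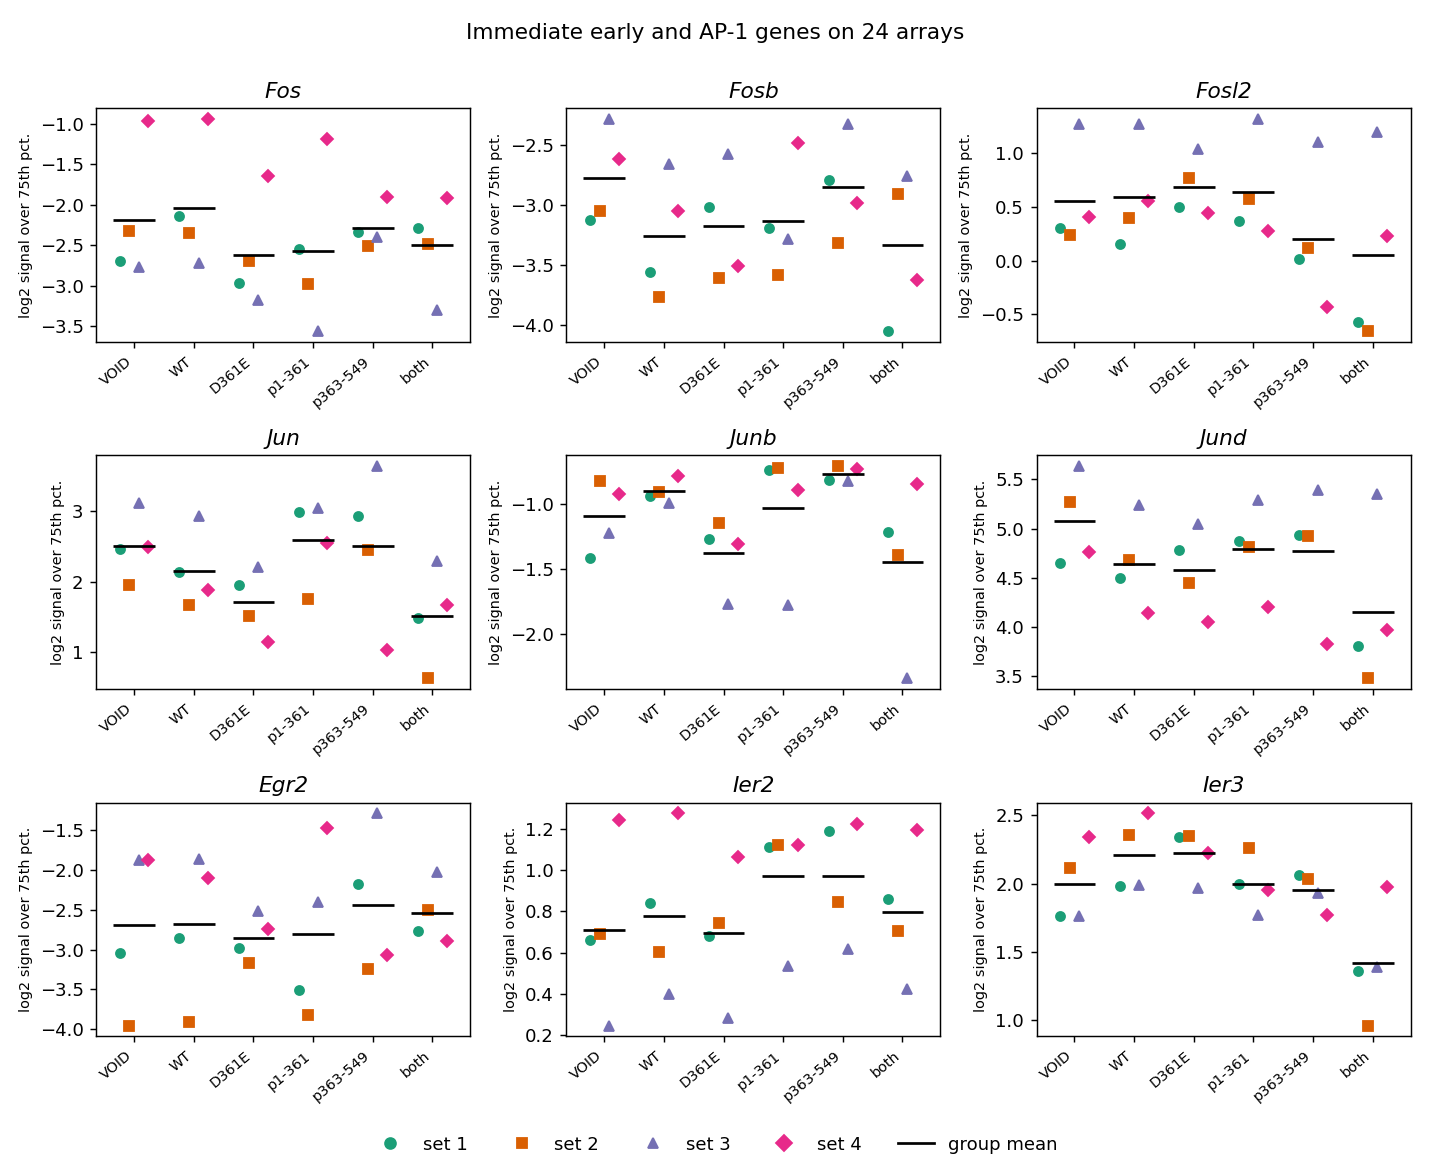
Level of each of the 9 tested members (vertical axes, log2 signal over the 75th percentile of the array, a different range for each gene) on each of the 24 arrays by transfection group, with symbols for the 4 sets of consecutive sample numbers and a bar for the mean of the 4 arrays. Ier3 is lowest with both fragments, whereas Fos is highest on the arrays of set 4 and Fosl2 on those of set 3 in all 6 groups.

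The 24 samples are numbered in 4 runs of 6 consecutive numbers, each run with 1 array of every group; these runs are called sets here, and the labels do not call them batches. Within the sets, Ier3 with both fragments differed from WT by -0.62, -1.39, -0.60 and -0.54 and from VOID by -0.40, -1.15, -0.37 and -0.37, lower in 4 of 4 sets each time. The difference of set 2 was more than 1.5 times that of any other set. In set 4 the single fragments also differed from VOID, by -0.39 in p1-361 and -0.57 in p363-549. The lower level in that set was thus not particular to both fragments, and its both-fragment array is 1 of the 3 that stood apart. On the slides that held both groups, the difference from WT was -1.03 on slide 3 and -0.02 on slide 6, which holds the both-fragment array numbered 4, and that from VOID was -0.95 and -0.75. With the sets as a fixed block, the Ier3 differences had an adjusted p of 0.0196 against WT, 0.00649 against D361E and 0.0299 against VOID, and the calls in these comparisons covered 7.36%, 21.6% and 16.1% of all genes.

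Other values also differed in the both-fragment group, some of them in other constructs too. The 75th percentile of the signal, which sets the zero of the scale, was 846.7 to 1214 on its arrays, 773 to 1023 in WT and 668.4 to 898.7 in D361E. It was 665.7 to 924.1 in VOID, 642.7 to 1021 in p1-361 and 635.8 to 736.4 in p363-549. Before scaling, the mean Ier3 signal was 2829 with both fragments, 4342 in WT, 3622 in D361E, 3192 in VOID, 3384 in p1-361 and 2681 in p363-549. The Ier3 calls against WT and D361E were kept under quantile normalization (-0.83 and -0.86) and lost after normexp background correction. Quantile normalization also rescales each array, so it cannot separate the Ier3 difference from the brightness of the arrays. Of the 4 mast cell markers Ms4a2 was never above background, and the summed level of the list relative to the 75th percentile was 0.0307 to 0.369 with both fragments, 1.67 to 3.17 in WT, 0.411 to 0.591 in D361E and 1.99 to 5.03 in VOID. It was 0.453 to 1.01 in p1-361 and 0.0567 to 1.43 in p363-549. In such bulk samples, fewer cells of a type and less RNA per cell cannot be told apart. Against VOID, both fragments had 3 of 3 tested mast cell markers called lower, 2 of 3 erythroid markers lower (median -1.29) and 2 of 3 monocyte markers higher (median 1.31). Of the 8 haematopoietic markers 1 was called higher, whereas the median of that list was below 0 (-0.26). At an unadjusted limma p under 0.05 there were 5 of these 8, counted in either direction. With both fragments against WT and against D361E, the called markers of these lists were 2 of the mast cell list each time. Against VOID, mast cell markers were also called lower in WT (1 of 3), D361E (2), p1-361 (1) and p363-549 (1). In each of these groups 1 monocyte marker was called higher, and in WT and p1-361 1 erythroid marker was called lower. Of all genes, 0.487%, 0.66%, 0.72% and 0.58% were called in these comparisons. The summed level of the 5 erythroid markers, of which Alas2 was never above background, was 37.8 to 50.5 with both fragments, 42.4 to 61.0 in WT, 51.3 to 84.5 in D361E and 68.8 to 159.5 in VOID. That of the 4 monocyte markers was 0.593 to 1.94, 0.895 to 1.92, 1.57 to 2.46 and 0.838 to 1.88 in the same order, and that of the 8 haematopoietic markers was 102.6 to 117.2, 122.6 to 135.7, 120 to 143.8 and 117.4 to 128.0. The part of these values in the Ier3 result was not tested.

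Ier2, the other member named as an immediate early response gene, encodes a nuclear protein induced by growth factors. Its group means lay within 0.28 of one another, from D361E (lowest) to p1-361 (highest). With both fragments it was 0.86, 0.71, 0.42 and 1.19, and in WT 0.84, 0.60, 0.40 and 1.27. The groups overlapped, and the lowest array was the one numbered 3 in each of the 6 groups. The difference was 0.02 ± 0.23 against WT (95% interval -0.47 to 0.50, adjusted p = 0.982).

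None of the Jun members passed the test with both fragments against VOID. Jun, the main activating partner in AP-1, was 1.48, 0.62, 2.30 and 1.67 with both fragments and 2.46, 1.96, 3.12 and 2.50 in VOID. It was 2.14, 1.67, 2.94 and 1.89 in WT and 1.95, 1.51, 2.22 and 1.14 in D361E. With single fragments it was 2.99, 1.76, 3.05 and 2.56 (p1-361) and 2.93, 2.45, 3.65 and 1.02 (p363-549). All groups overlapped, and the p363-549 array numbered 4, which resembled the both-fragment mean over many genes, was the lowest of its group. Against VOID the difference in Jun was -0.99 ± 0.46 (95% interval -1.94 to -0.05, adjusted p = 0.246). Within the sets it was -0.99, -1.34, -0.82 and -0.83, lower in 4 of 4, and with a fixed block for sets Jun was called (adjusted p = 0.0296). Without the 3 arrays the difference was -1.04 (adjusted p = 0.151). D361E minus VOID was -0.81 ± 0.46 in Jun (adjusted p = 0.928), with -0.52, -0.44, -0.90 and -1.36 within the sets. Both fragments minus D361E was -0.19 ± 0.46 (adjusted p = 0.833), so the level of Jun was not told apart between these groups.

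Jund, the Jun member that is expressed without a stimulus in many cells, was 3.80, 3.48, 5.35 and 3.97 with both fragments and 4.65, 5.27, 5.64 and 4.77 in VOID. In WT it was 4.50, 4.69, 5.25 and 4.15. The both-fragment array of set 3 stood at the level of the other groups, and the remaining 3 lay below every VOID array. The difference from VOID was -0.93 ± 0.38 (adjusted p = 0.186), and within the sets it was -0.85, -1.79, -0.29 and -0.79. Jund was called with sets as a block (adjusted p = 0.0105) and without both-fragment replicate 3 (-1.33, adjusted p = 0.0335). Without the 3 arrays that stood apart it was -0.87 (adjusted p = 0.171).

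Junb, a weaker activator that can oppose Jun, lay close together in WT, at -0.94, -0.91, -0.99 and -0.79, and in p363-549, at -0.82, -0.71, -0.83 and -0.73. In D361E it was -1.27, -1.15, -1.77 and -1.31, and these arrays did not overlap those of WT, as for 3.62% of all genes in that comparison. With both fragments it was -1.22, -1.39, -2.34 and -0.85, in VOID -1.42, -0.83, -1.23 and -0.93, and in p1-361 -0.75, -0.73, -1.78 and -0.89. The lowest array was the one numbered 3 in all groups but VOID. D361E minus WT was -0.47 ± 0.25 (adjusted p = 1), with -0.33, -0.24, -0.78 and -0.53 within the sets. Both fragments minus WT was -0.54 ± 0.25 (adjusted p = 0.381).

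**Figure D2:**
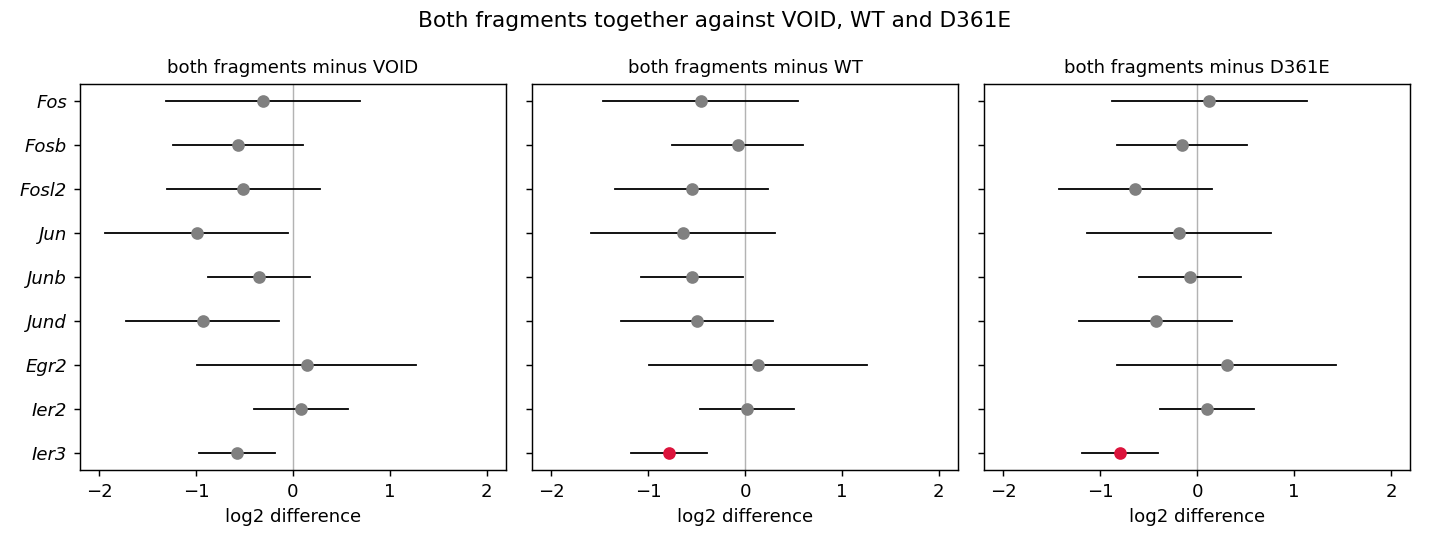
Log2 difference of both fragments together from VOID, WT and D361E for each tested member (points, n = 4 arrays per group), with 95% intervals from the limma fit (lines) and called genes in red. Ier3 is the only called gene, at -0.79 against WT and -0.80 against D361E, and the intervals of Fos and Egr2 reach about 1 log2 unit to either side.

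Of the Fos members, which need a Jun partner to bind DNA, none differed between groups by the test. Fos was -2.69, -2.33, -2.76 and -0.97 in VOID, -2.15, -2.35, -2.72 and -0.94 in WT, and -2.97, -2.70, -3.18 and -1.65 in D361E. With p1-361 it was -2.55, -2.98, -3.57 and -1.19, with p363-549 -2.34, -2.51, -2.40 and -1.91, and with both fragments -2.29, -2.49, -3.30 and -1.91. The array numbered 4 was the highest in each of the 6 groups. The 6 group means spanned 0.58 and the 4 set means 1.56. WT minus VOID was 0.15 ± 0.48 in Fos (95% interval -0.85 to 1.15), an interval that holds both a lowering and a doubling.

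Fosl2, also known as Fra-2, was 0.31, 0.24, 1.28 and 0.41 in VOID, 0.15, 0.40, 1.28 and 0.56 in WT, and 0.50, 0.77, 1.04 and 0.44 in D361E. The fragments gave 0.37, 0.57, 1.32 and 0.28 (p1-361), 0.02, 0.12, 1.11 and -0.43 (p363-549), and -0.58, -0.66, 1.20 and 0.23 (both). The array numbered 3 was the highest of every group, at 1.04 to 1.32. Against D361E the both-fragment difference in Fosl2 was -0.64 ± 0.38 (adjusted p = 0.331), which was called once sets entered the fit as a block (adjusted p = 0.0319). Fosb, a Fos relative, was dim, from -4.05 to -2.29 over the 24 arrays, with its highest mean in VOID and its lowest with both fragments, and the smallest adjusted p in the 9 comparisons with VOID and WT was 0.357. Egr2, a zinc finger factor of the Egr family, ran from -3.95 to -1.29, and its 6 group means lay within 0.40 of one another, the smallest share of variance between groups of any tested member (3.65%).

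Over the members as a list, counts against VOID were 0 of 9 called in WT, D361E, p1-361 and p363-549, where 0.487%, 0.66%, 0.72% and 0.58% of all genes were called, and 0 of 9 with an unadjusted limma p under 0.05 in each. With both fragments 0 of 9 were called against VOID beside 4.46% of all genes, and 3 had an unadjusted p under 0.05 (Jun, Jund and Ier3). Against WT the counts were 0 of 9 in D361E, p1-361 and p363-549, where 0.08%, 0.127% and 0.147% of all genes were called, again with 0 at an unadjusted p under 0.05. The difference of both fragments from VOID was below 0 in 7 of 9 members, with a median of -0.51 beside -0.01 over all genes tested, and their difference from WT had a median of -0.49 beside 0.04. The members share arrays and sets, so their differences are not independent of each other. D361E against VOID had a median of -0.28, with 2 of 9 above 0, beside -0.02 over all genes. WT and p363-549 had medians of 0.04 and -0.04 against VOID, and that of p1-361 was within 0.01 of 0.

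In limma's moderated F test over the 6 groups, 0 of 9 members were called beside 2.84% of all genes, with Ier3 nearest (F = 4.77, adjusted p = 0.105), and 1 (Ier3) had an unadjusted p under 0.05. Departure from additivity was called for 0 of 9 members beside 0.213% of all genes, and 0 had an unadjusted p under 0.05. In the order of group means, p1-361+p363-549 was lowest for 6 of the 9 members: Fosb, Fosl2, Jun, Junb, Jund and Ier3. D361E was lowest for Fos, Egr2 and Ier2. Besides Ier3 and Junb, no member had groups that did not overlap in a comparison with VOID or WT. Over all genes, groups lay apart from VOID for 10.1% with both fragments, 3.3% with p363-549, 4.75% with p1-361, 4.78% with D361E and 4.75% with WT, and from WT for 2.8% with p1-361 and 3.75% with p363-549. No neighbouring pair in that order was called for any member (0 of 45), and the nearest was p363-549 and both fragments in Ier3 (0.53, adjusted p = 0.163). Of all 135 tests of a member between 2 groups, the 2 described for Ier3 were called. Over all genes, 0.173% were called in p1-361 and 0.573% in p363-549 against D361E, and 0% between any 2 of the 3 fragment groups.

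**Figure D3:**
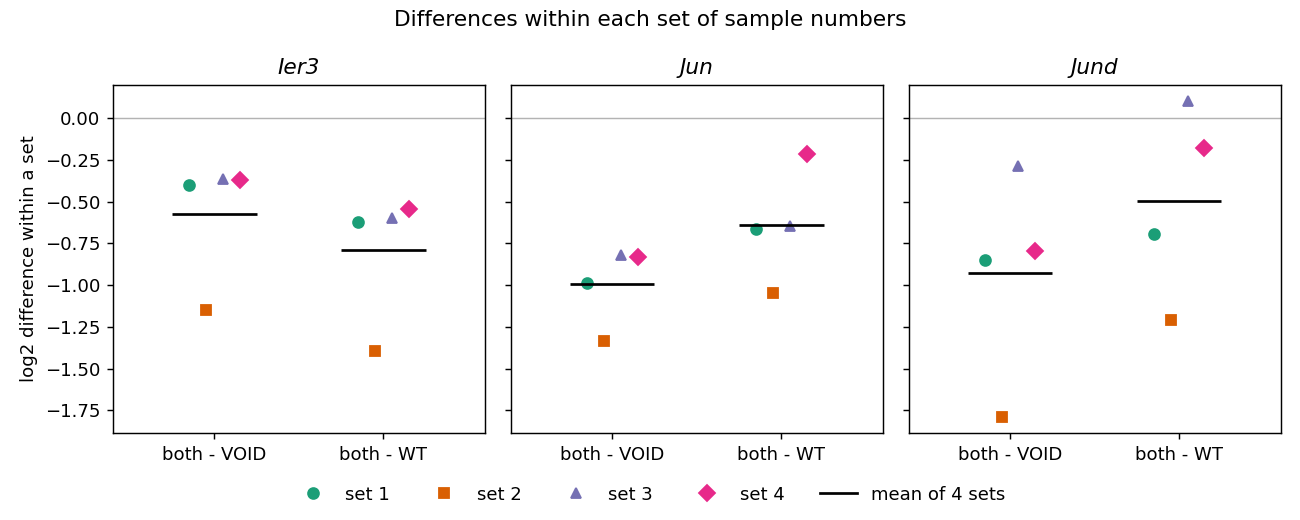
Difference of both fragments from VOID and from WT within each of the 4 sets of sample numbers (symbols, 1 array per group and set, log2 scale), with the mean of the 4 sets as a bar, for Ier3, Jun and Jund. All 4 points lie below 0 for Ier3 and Jun in both comparisons, whereas Jund against WT has 1 point above 0.

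For 7 of 9 members a larger share of the variance lay between sets than between transfection groups, a comparison added after the values were seen; the exceptions were Ier3 and Junb. In a limma fit with group and set, 8 of 9 members (all except Ier3, adjusted p = 0.198) differed among the sets. So did 58.6% of all genes, so the count is not particular to the members. The set took 77.1% of the variance of Ier2, 74.5% of that of Fos, 63.0% of that of Fosl2, 56.2% of that of Egr2 and 54.7% of that of Jund. The set shares of Jun and Fosb were 43.7% and 36.6%, and Junb had 32.5% between sets and 36.3% between groups. For Ier3 it was 11.8%, with 57.6% between groups. Over all genes the median was 35.9% for sets and 23.6% for groups. Fos averaged -1.43 ± 0.45 (SD, n = 6 arrays) in set 4 and -2.99 ± 0.43 in set 3, and Ier2 averaged 1.19 ± 0.08 and 0.42 ± 0.14 in the same sets. Fosl2 went the other way, with 1.21 ± 0.11 in set 3 and 0.25 ± 0.35 in set 4, and Jun was also highest in set 3 (2.88 ± 0.54).

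**Figure D4:**
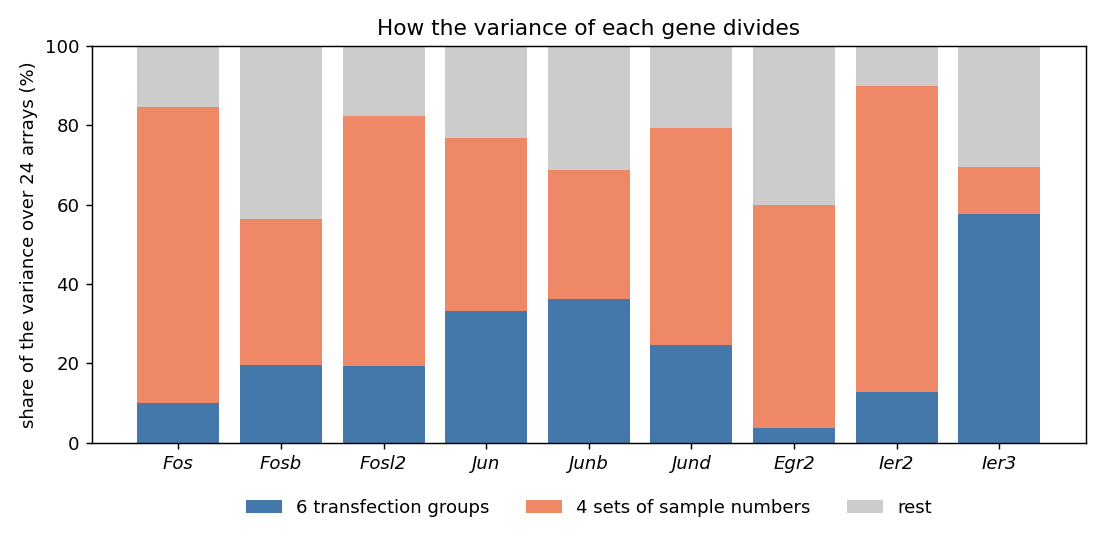
Share of each tested member's variance over 24 arrays that lay between the 6 transfection groups, between the 4 sets of sample numbers, and in neither (stacked bars, percent). Ier3 has the largest group share (57.6%) and Ier2 the largest set share (77.1%).

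With the sets as a fixed block, the members called with both fragments were Jun, Jund and Ier3 against VOID, and Ier3 against WT. They were Jun and Ier3 against p1-361 (15.8% of all genes called) and Jun, Junb and Ier3 against p363-549 (14%). All these differences were below 0. Against D361E they were Fosl2 and Ier3, with none in p1-361 or p363-549 (0.507% and 1.97%), nor between the single fragments (0%), where 2, 4 and 1 members had an unadjusted p under 0.05. No member was called under the block in WT, D361E, p1-361 or p363-549 against VOID, where 1.47%, 1.79%, 3.01% and 1.81% of all genes were, nor in the additivity test (5.54%), nor in D361E, p1-361 or p363-549 against WT (0.227%, 0.14% and 0.287%). At an unadjusted p under 0.05 these comparisons had 0 to 2 members, and additivity had 4 (Jun, Junb, Ier2 and Ier3). In the F test over groups the block gave Jun (adjusted p = 0.0487) and Ier3 (0.0331) beside 11.1% of all genes. Without the 3 arrays that stood apart, and with no block, Jun, Junb and Ier3 were called lower with both fragments than with p363-549, by 1.55, 0.86 and 0.77 on the log2 scale, where 15.2% of all genes were called, against 0% in the full data. Against p1-361 the 1 member called there was Ier3, beside 11.7%.

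Across the 24 arrays, Jun and Jund varied together (Pearson r = 0.79), as did Fosl2 and Jund (0.78), Fos and Ier2 (0.72), and Fosb and Egr2 (0.70). These arrays share groups and sets, and r is a description. After the means of group and set were removed, Jund and Ier3 had r = 0.81 and Fosl2 and Ier3 0.80, while Fos and Ier2 had 0.19. The 3 genes most like Ier3 over the 24 arrays, other members left out, were Padi2 (r = 0.88), Myl10 (0.86) and Garnl3 (0.85).

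The other genes of the pathway came from lists chosen with earlier results known. Of 13 further AP-1 family genes 9 were tested, and 2 fell with both fragments against VOID, where 4.46% of all genes were called. These were Jdp2, a repressor that pairs with Jun (-0.83 ± 0.22, adjusted p = 0.03), and Mafk, a small Maf protein (-0.79 ± 0.18, adjusted p = 0.0146). The list's median was -0.46, and 0 of it were called in each of the other 8 comparisons with VOID or WT, with 0 to 3 at an unadjusted p under 0.05. The Jdp2 call was lost in 9 of 37 settings, among them without any 1 of VOID replicates 1, 2 and 4 and both-fragment replicates 1 and 2 (adjusted p up to 0.15), and that of Mafk in 5, among them without VOID replicate 3 or both-fragment replicate 1 or 2. With the sets as a block, 4 genes of this list were called with both fragments against VOID, 2 against WT, and 2 in p1-361 against VOID. The block called 16.1%, 7.36% and 3.01% of all genes in these comparisons.

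Of 34 other immediate early genes 21 were tested, and 3 fell with both fragments against VOID, where 4.46% of all genes were called. Id2, an inhibitor of helix-loop-helix factors, fell by 2.21 ± 0.43 (adjusted p = 0.00372), Btg2, an antiproliferative gene, by 1.96 ± 0.43 (adjusted p = 0.00988), and Cebpb, a leucine zipper factor, by 0.93 ± 0.24 (adjusted p = 0.0271). Cebpb was also the 1 gene of this list called against WT, at -1.03 ± 0.24 (adjusted p = 0.0395), where 1.02% of all genes were called. The list's median was -0.44 against VOID and -0.50 against WT, and in the remaining 7 comparisons 0 of it were called, with 0 to 1 at an unadjusted p under 0.05. The Id2 and Btg2 calls were lost in a fit of the compared arrays only (adjusted p = 0.0555 and 0.0507), and that of Btg2 also without both-fragment replicate 2 (0.0539). The Cebpb call against VOID was lost in 6 of 37 settings, among them without VOID replicate 2 or 3 or both-fragment replicate 1 or 2, and the call against WT in 19 of 37 settings (adjusted p up to 0.215), among them leaving out any single array except VOID replicates 1 and 3, D361E replicate 4, p1-361 replicate 4, both-fragment replicate 4 and the 4 p363-549 arrays. The block called 6 genes of this list with both fragments against VOID and 5 against WT, beside 16.1% and 7.36% of all genes.

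Of 23 genes of the Ras and MAP kinase pathway 21 were tested and 0 were called by limma in each of the 9 comparisons with VOID or WT, with 0 to 4 at an unadjusted p under 0.05. Under the block 1 was called, with both fragments against VOID, beside 16.1% of all genes. Among 10 tested transcription factor genes that act on immediate early genes, 1 rose with both fragments against VOID, beside 4.46% of all genes called. It was Nab1, a corepressor of Egr proteins (0.71 ± 0.17, adjusted p = 0.0158). Its call was lost in 5 of 37 settings, among them without VOID replicate 1 or both-fragment replicate 1 or 2. Of 6 tested ERK feedback genes, Phlda1 fell in D361E against VOID by 1.92 ± 0.31 (adjusted p = 0.00164), a call kept in 37 of 37 settings. In that comparison 0.66% of all genes were called. Under the block 1 gene of this list was called in each of 5 comparisons: D361E, p1-361 and both fragments against VOID, and D361E and both fragments against WT. The shares of all genes called there were 1.79%, 3.01%, 16.1%, 0.227% and 7.36%, in that order.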

How the data were processed

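Total RNA, labelled with Cy3, was hybridised to Agilent arrays, 4 on each of 6 slides. Scans were read with Agilent Feature Extraction 10.7.3.1 on build mm9, per the file headers, and the authors deposited intensity for each spot: background-subtracted processed signal, linear and without scaling across arrays. The deposited series matrix holds equal values (largest difference 0). Here, spots marked as outliers (185 to 312 per array; no spot was saturated) were dropped, repeated spots averaged, and the 75th percentile of each array subtracted from the log2 of the deposited intensity. A probe was kept if well above background in 4 of 4 arrays of any group (19523 probes), and the brightest stood for its gene (15004 genes). R 4.3.3 with limma 3.58.1 and data.table version 1.17.8 fitted 1 mean per group over 24 arrays (18 residual and 3.06 prior degrees of freedom, 2-sided). The fit was also run on simulated data without set differences, with changes in WT larger than any member difference given here. That run does not cover differences of the size reported. Precision is limited by 4 arrays a group.

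The members and lists were chosen with earlier results of these data known. Named were the 10 members, Rela, up to 6 called genes of each list in the 9 comparisons with VOID or WT, and the 3 genes most like each called member. Replicate numbers follow sample order. Other settings were normexp (offset 50), quantile scaling, other filters, percentiles and priors, slides or sets as blocks, fewer arrays, the mean of a gene's probes and the series matrix.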

Additional observations from a re-analysis of the deposited data

Results flagged for a closer look

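Among 66 sets of 4 arrays (each of 11 member probes in each of 6 groups), 3 held an array whose distance from its nearest neighbour was above the 95% critical value of Dixon's ratio (the gap over the whole range of the 4), where chance gives about 1 set in 20. All 3 were arrays numbered 3. Fosl2 in VOID replicate 3 was 1.28, with the nearest array at 0.41 (ratio 0.839). Ier2 in p1-361 replicate 3 was 0.54, with the nearest at 1.11 (0.985). Junb in p1-361 replicate 3 was -1.78, with the nearest at -0.89 (0.841). No member's call rested on these values.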

How the results depend on the processing

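Single-gene differences were rerun only where the fit called them, or for members where the set block did, and none of those reversed its direction. For both fragments against VOID, 3 members were called with the sets as a fixed replicate block and 1 (Ier3) without the 3 fragment arrays numbered 4, and leaving out each array in turn gave 0 to 1: Jund without both-fragment replicate 3, and Ier3 without both-fragment replicate 4. Against WT, 0 members were called after normexp correction, with no filter on dim probes (30195 genes tested), with only probes above background on all 24 arrays (13463 genes), with slide as a fixed or random block, and with only the arrays compared; leaving out each array gave 0 to 1. For any difference among the 6 groups, 2 members were called with the sets as a block and 1 without the 3 arrays, and leaving out each array gave 0 to 1 (Ier3 without both-fragment replicate 4). The cause of these changes was not tested, apart from the number of genes tested or arrays used in those settings. Counts in the remaining comparisons with VOID or WT, and of additivity, were 0 in all settings. The count of members that differed among sets was 8 in all settings run. Dim probes limit Egr1, and 4 arrays per group leave intervals about 1 log2 unit either side for Fos and Egr2.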

Other observations

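Genes most like each member over the 24 arrays, members left out, were Snhg5 for Fos (Pearson r = 0.90), Adra2a for Fosb (0.75), Tlr6 for Fosl2 (0.95), Gm1966 for Jun (0.91), Abca13 for Junb (0.86), Dhx34 for Jund (0.93), Natd1 for Egr2 (0.81) and Atad3a for Ier2 (0.85). Hbegf, itself an early response gene encoding an EGF-like growth factor, came after Atad3a for Ier2 (0.84). Map3k14, the kinase NIK of the non-canonical NF-kB pathway, came after Adra2a and Vmn2r7 (0.68) for Fosb (0.66). Hbegf and Map3k14 were picked for their function from the 3 genes nearest each member. All genes given here for uncalled members are outside the rule for named genes. These correlations span arrays that share groups and sets and are given as descriptions. Against D361E, which was outside the rule for named genes, both fragments also had lower Sik1 (-2.08 ± 0.45, adjusted p = 0.0113) and Id1 (-0.75 ± 0.20, adjusted p = 0.0353), and higher Phlda1 (1.20 ± 0.31, adjusted p = 0.0297) and Spred1 (0.58 ± 0.16, adjusted p = 0.0381), all chosen after their values were seen. Of 37 settings, 3 ended the call of Sik1, 9 that of Id1, 9 that of Phlda1 and 13 that of Spred1, with adjusted p-values up to 0.108, 0.146, 0.161 and 0.219.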
